A study of Mus musculus with 6 samples.

Results

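Fatty acid desaturases and elongases were followed in the liver of mice given deproteinized extract of calf blood (DECB). The set held 8 genes, Fads1, Fads2, Fads3, Scd2, Elovl1, Elovl2, Elovl3 and Elovl5, listed by name and found through the RefSeq accession of each array probe. The rule sets no threshold on a measured value, but the list was drawn up with earlier results of these data known. All 8 had a probe and passed the filter on dim signals, out of 14803 genes tested. Liver RNA came from male ICR mice, an outbred stock, of 18 to 22 g. The tested animals received DECB and the control animals normal saline, 12 mice in each group, with 0.08 mL for each 20 g of mouse given every day over 35 days. DECB went into the stomach, and the labels do not name the route of the saline separately. The labels name no transgene, allele or further treatment in either group. The sample descriptions instead give 30 days for DECB and 1 day for control. The study also timed hypoxia tolerance in closed containers, and the labels do not say whether liver sampling preceded that test. The arrays were labelled DECB 4, 5 and 6 and control 1, 2 and 3. The labels tie no array to a mouse of its own, so the p-values reflect only how far these samples differ among themselves, which could be technical.

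Desaturases insert double bonds into fatty acyl chains in the membrane of the endoplasmic reticulum, and ELOVL elongases catalyse the first, rate-setting condensation step of chain elongation there. In the liver, FADS2 and FADS1 alternate with ELOVL5 and ELOVL2 to turn the dietary polyunsaturated fatty acids linoleate and alpha-linolenate into arachidonate and docosahexaenoate. ELOVL1 and ELOVL3 instead lengthen saturated and monounsaturated chains, and the stearoyl-CoA desaturases (SCD) make monounsaturated ones. Many of these genes are known targets of SREBP-1, LXR and PPAR-alpha, the receptors and factors that adjust liver lipid synthesis to feeding and fasting.

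The 6 arrays came from 3 scan images, identified in the file headers. Scan 1 held DECB 6 and control 1, scan 2 held DECB 4 and controls 2 and 3, and scan 3 held DECB 5 alone. Scan 1 was dimmer: its processed signals had a 75th percentile of 84.8 in DECB 6 and 78.8 in control 1, against 422 to 551 on the other arrays. Levels below are log2 signals relative to that percentile, so array brightness as a whole is removed, and they compare arrays for 1 probe, not genes with each other. Controls 2 and 3 were the most alike pair of arrays (median difference between probes 0.148 on the log2 scale), and whether they were separate samples could not be tested. By this measure control 1 was closer to DECB 6 (0.310) than to controls 2 and 3 (0.632 and 0.644). DECB 6 was farther from DECB 4 and 5 (0.747 and 0.761) than from control 1. DECB 4 was closer to DECB 5 (0.284) than to controls 2 and 3 of its own scan (0.366 and 0.360). Differences between scan 1 and the other arrays thus remain in these levels. In liver pieces, fewer cells of a type and less RNA per cell cannot be told apart.

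Over all genes, limma called 31 higher and 38 lower in DECB at a Benjamini-Hochberg adjusted p under 0.05, which is 0.466% of genes tested. Of the 8 desaturases and elongases, 0 were called. At an unadjusted limma p under 0.05 there were 4 of 8 (Elovl3 and Scd2 higher, Elovl2 and Elovl5 lower), where 10.0% of all genes reached that level, 4.22% higher and 5.79% lower. The DECB and control arrays did not overlap for 5 of the 8, with Elovl1, Elovl3 and Scd2 higher and Elovl2 and Elovl5 lower, where 16.6% of all genes did not overlap, 7.24% higher and 9.40% lower. For Elovl3 the gap was under the third decimal. Because of how the genes were chosen, these counts are a description. For each of these 5 genes the exact permutation test over arrays, two-sided, gave p = 0.1, the smallest that 3 arrays against 3 allow. With scan as a block, limma called 6.67% of all genes (2.74% higher and 3.94% lower) and 3 of the 8, Elovl1 higher and Elovl2 and Elovl5 lower. That fit takes its contrast from scans 1 and 2 alone and leaves 2 residual degrees of freedom, part of which is the difference between controls 2 and 3.

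Promoter sequences are given for 3 elongases picked after their values were seen, since Elovl2 and Elovl5 lay lower together while Elovl1 lay higher. None of these 3 was called without scan as a block. The table of RefSeq promoters used here (GRCm38.p6) had an entry for 5 of the 8 genes (Fads2, Fads3, Elovl1, Elovl2 and Elovl5). Each line gives the 250 bases before the start of transcription, 5′ to 3′ on the gene's strand, at the most upstream start listed. Capitals mark matches, on both strands, to 3 motifs. The E-box was searched as CACGTG. The CCAAT box was searched by the letters of its name, and the GC box as GGGCGG.
Elovl5, chr9:77917115-77917364, plus strand: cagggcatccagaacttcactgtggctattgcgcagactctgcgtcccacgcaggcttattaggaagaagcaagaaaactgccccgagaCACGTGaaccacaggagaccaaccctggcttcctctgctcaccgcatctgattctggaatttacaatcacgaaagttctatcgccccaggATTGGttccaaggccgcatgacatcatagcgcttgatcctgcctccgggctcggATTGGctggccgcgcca
Elovl2, chr13:41220404-41220653, minus strand: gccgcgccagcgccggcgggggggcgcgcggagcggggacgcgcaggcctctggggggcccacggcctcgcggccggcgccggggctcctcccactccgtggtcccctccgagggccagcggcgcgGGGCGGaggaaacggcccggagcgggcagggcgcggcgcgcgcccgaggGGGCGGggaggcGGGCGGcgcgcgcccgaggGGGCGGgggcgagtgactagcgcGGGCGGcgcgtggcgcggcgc
Elovl1, chr4:118427843-118428092, plus strand: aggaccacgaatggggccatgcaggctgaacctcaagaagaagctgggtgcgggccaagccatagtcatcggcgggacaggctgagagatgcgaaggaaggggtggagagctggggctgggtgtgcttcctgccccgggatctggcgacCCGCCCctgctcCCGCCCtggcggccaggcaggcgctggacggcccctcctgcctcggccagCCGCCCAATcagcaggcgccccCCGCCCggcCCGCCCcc

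The window of Elovl5 held 1 E-box, found in 6.02% of all promoter windows of this length, and 2 CCAAT boxes, found at least once in 33.8%. It had no GC box. The windows of Elovl2 and Elovl1 each held 5 GC boxes, where 32.7% of all windows had 1 or more, and Elovl1 also had 1 CCAAT box that overlaps a GC box. The GC content was 55.6% for Elovl5, 87.2% for Elovl2 and 72.0% for Elovl1, against a median of 52.4% over all windows. The windows of Fads2 and Fads3, whose groups overlapped, held 1 and 2 GC boxes and had a GC content of 64.8% and 74.4%. Fads3 also had 2 CCAAT boxes. None of the 5 windows held the nuclear receptor half-site AGGTCA (14.0% of all windows), the cAMP response element TGACGTCA (1.55%) or the sterol regulatory element letters TCACNCCAC (1.05%). These matches are a description of the letters, and say nothing of binding.

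Elovl2, which elongates the longer polyunsaturated chains on the way to docosahexaenoate, was at 4.17, 3.97 and 4.37 in DECB 4, 5 and 6, against 5.87, 5.48 and 5.02 in controls 1, 2 and 3. Every DECB array lay below every control array, and the DECB values spanned a narrow range. The mean was 4.17 ± 0.20 in DECB and 5.46 ± 0.43 in control (SD, n = 3 each). The difference was -1.28 (SE 0.32, 95% interval -2.04 to -0.53), a level 2.44-fold lower in DECB. It did not pass over all genes (limma, adjusted p = 0.187). Elovl2 was lower by similar amounts within each scan, by -1.50 in scan 1 and -1.07 in scan 2. With scan as a block the difference was -1.26 (SE 0.22, limma, adjusted p = 0.0466).

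Elovl5, which elongates polyunsaturated chains after the FADS2 step, was at 4.72, 4.52 and 5.79 in DECB 4, 5 and 6, against 7.12, 5.93 and 5.83 in controls 1, 2 and 3. The groups were separated by a small gap, between DECB 6 and control 3, and in each group the array of scan 1 was the highest. The means were 5.01 ± 0.69 in DECB and 6.29 ± 0.72 in control (SD, n = 3 each). The difference was -1.28 (SE 0.50, 95% interval -2.45 to -0.11, limma, adjusted p = 0.445), a level 2.43-fold lower in DECB. Within scans Elovl5 differed by -1.32 in scan 1 and -1.16 in scan 2. With scan as a block it differed by -1.23 (SE 0.15, limma, adjusted p = 0.0291). What made the SE smaller in that fit was not tested.

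Elovl1, which lengthens saturated and monounsaturated chains toward the very long chains of sphingolipids, went the other way. Its brighter probe was at 2.96, 2.91 and 3.80 in DECB 4, 5 and 6, against 2.84, 2.15 and 1.96 in controls 1, 2 and 3. All DECB arrays were above all control arrays, with control 1 close to the lowest DECB array. The means were 3.22 ± 0.50 in DECB and 2.32 ± 0.46 in control (SD, n = 3 each). The difference was 0.91 (SE 0.39, 95% interval 0.00 to 1.81, limma, adjusted p = 0.499), a level 1.88-fold higher in DECB. It was 0.95 within scan 1 and 0.91 within scan 2, and 0.93 with scan as a block (SE 0.16, limma, adjusted p = 0.0435). Elovl1 was the only one of the 8 genes with a second probe. That dimmer probe was at -0.62, -1.05 and -0.26 in DECB 4, 5 and 6, against -1.24, -1.84 and -1.38 in controls 1, 2 and 3, again without overlap, with a difference of 0.84.

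**Figure D1:**
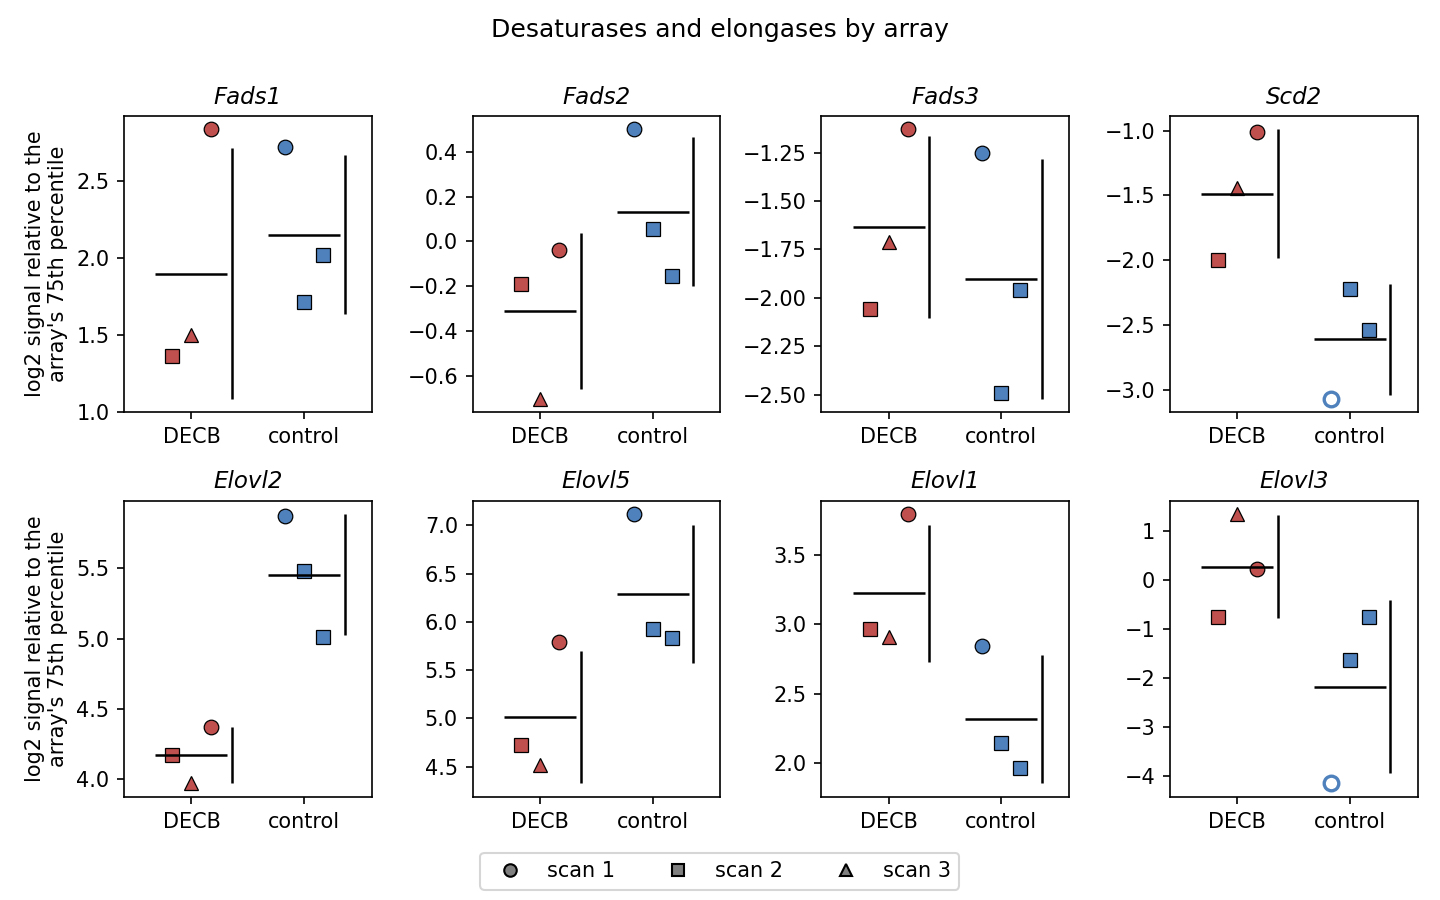
Log2 signal after subtraction of each array's 75th percentile (y axis, a separate scale for each gene) for the 8 genes on the 3 DECB arrays and the 3 control arrays. Symbols show the scan, open symbols an array on which the probe was not well above background, horizontal lines the mean and vertical lines the SD; Elovl2 and Elovl5 lie lower and Elovl1, Scd2 and Elovl3 higher on the DECB arrays, while Fads1, Fads2 and Fads3 overlap.

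The opposite positions of Elovl1 and of Elovl2 and Elovl5 can be read within each array, where the brightness of the array cancels. The absolute ratio depends on the probes, and only its difference between arrays has a meaning. The log2 ratio of Elovl1 to Elovl5 was -1.76, -1.61 and -1.999 in DECB 4, 5 and 6, against -4.27, -3.78 and -3.87 in controls 1, 2 and 3. The 2 groups lay far apart relative to their spread, with means of -1.79 ± 0.20 in DECB and -3.98 ± 0.26 in control (SD, n = 3 each). The ratio was higher in DECB by 2.19 on the log2 scale, a 4.55-fold difference, with 2.27 within scan 1 and 2.07 within scan 2. The ratio of Elovl1 to Elovl2 behaved alike, at -1.21, -1.06 and -0.58 in DECB 4, 5 and 6 and -3.03, -3.34 and -3.05 in controls 1, 2 and 3. It was 4.57-fold higher in DECB. The ratio of Elovl2 to Elovl5 showed no such separation, with means of -0.84 ± 0.51 in DECB and -0.84 ± 0.40 in control (SD, n = 3 each). Of the 28 ratios between the 8 genes, 20 did not overlap between groups, where 19.8% of the ratios of all pairs of genes did not. These ratios share genes and were looked at after the values were seen, so no test is given. With the second Elovl1 probe, with normexp background correction and with quantile normalization, all chosen after seeing the data, the Elovl1 to Elovl5 ratio was 4.35-fold, 4.30-fold and 4.29-fold higher in DECB, again without overlap.

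**Figure D2:**
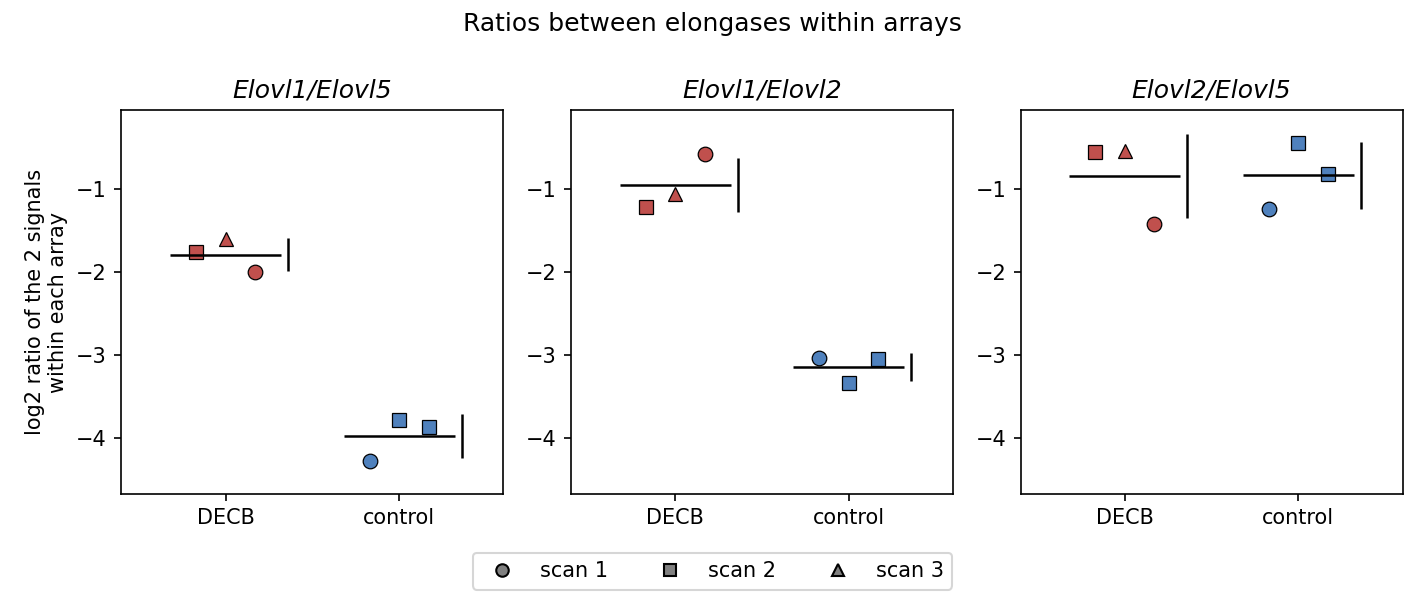
Log2 ratio of the signals of 2 elongases within each array (y axis, the same scale in the 3 panels) for the DECB arrays and the control arrays, with means (horizontal lines) and SD (vertical lines). The ratios of Elovl1 to Elovl5 and of Elovl1 to Elovl2 are higher on all 3 DECB arrays, while the ratio of Elovl2 to Elovl5 overlaps.

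The front-end desaturases did not separate the groups. Fads1, Fads2 and Fads3 are neighbouring genes on chromosome 19, with no other protein-coding gene between them in the RefSeq annotation. Fads1, the delta-5 desaturase, was at 1.37, 1.497 and 2.83 in DECB 4, 5 and 6, against 2.72, 1.71 and 2.02 in controls 1, 2 and 3. The highest array of each group was that of scan 1, and the ranges overlapped widely. The means were 1.90 ± 0.81 in DECB and 2.15 ± 0.52 in control (SD, n = 3 each). The difference was -0.25 (SE 0.49, 95% interval -1.40 to 0.89, limma, adjusted p = 0.999), with 0.11 within scan 1 and -0.50 within scan 2. Fads2, the delta-6 desaturase that opens the pathway, was at -0.19, -0.70 and -0.04 in DECB 4, 5 and 6, against 0.50, 0.06 and -0.15 in controls 1, 2 and 3. DECB 5 was the lowest array, and the groups overlapped, with means of -0.31 ± 0.35 in DECB and 0.13 ± 0.33 in control (SD, n = 3 each). The difference was -0.44 (SE 0.32, 95% interval -1.21 to 0.32, limma, adjusted p = 0.797). Fads3, which has been linked to a double bond in sphingoid bases, was at -2.06, -1.71 and -1.13 in DECB 4, 5 and 6, against -1.25, -2.49 and -1.96 in controls 1, 2 and 3. The ranges overlapped, with means of -1.63 ± 0.47 in DECB and -1.90 ± 0.62 in control (SD, n = 3 each). The difference was 0.27 (SE 0.42, 95% interval -0.72 to 1.26, limma, adjusted p = 0.979). The interval of Fads1 holds differences as large as those of Elovl2 and Elovl5, so these arrays cannot show whether Fads1 differed that much. Within arrays, the ratio of Fads2 to Elovl2 did not overlap between groups, at -4.48 ± 0.17 in DECB and -5.32 ± 0.14 in control (SD, n = 3 each), so Elovl2 was lower relative to Fads2 on every DECB array.

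Scd2, a stearoyl-CoA desaturase that is strongest outside adult hepatocytes, was at -1.998, -1.45 and -1.01 in DECB 4, 5 and 6, against -3.07, -2.22 and -2.54 in controls 1, 2 and 3. All DECB arrays were above all control arrays. On control 1 the probe was not well above background, so the level there is only a bound. The means were -1.49 ± 0.49 in DECB and -2.61 ± 0.43 in control (SD, n = 3 each). The difference was 1.12 (SE 0.38, 95% interval 0.24 to 2.01, limma, adjusted p = 0.358). It was 2.05 within scan 1, where it is set against that bound, and 0.38 within scan 2. With normexp background correction, which adds an offset to all signals, it was 0.37. Scd1, the main liver isoform, was not in the set and overlapped between the groups, at 6.11, 5.19 and 5.87 in DECB 4, 5 and 6, against 6.49, 6.21 and 5.88 in controls 1, 2 and 3 (difference -0.47, limma, adjusted p = 0.806). Scd1, Scd2, Scd3 and Scd4 are close relatives that follow each other on chromosome 19, and whether their probes share signal was not tested.

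Elovl3, an elongase of brown fat, skin and liver that in mouse liver follows the time of day and is higher in males, was at -0.75, 1.35 and 0.24 in DECB 4, 5 and 6, against -4.15, -1.62 and -0.75 in controls 1, 2 and 3. It had the widest spread of the 8 genes, with an SD of 1.05 in DECB and 1.77 in control (n = 3 each), and DECB 4 and control 3 were at the same level to 2 decimals. The probe was not well above background on control 1, so the level there is only a bound. The difference was 2.45 (SE 0.92, 95% interval 0.28 to 4.63, limma, adjusted p = 0.431). It was 4.39 within scan 1, where it is set against that bound, and 0.44 within scan 2. Without control 1 it was 1.47, over 1.5 times smaller. With normexp, which changes the signals of all arrays, it was 1.17.

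**Figure D3:**
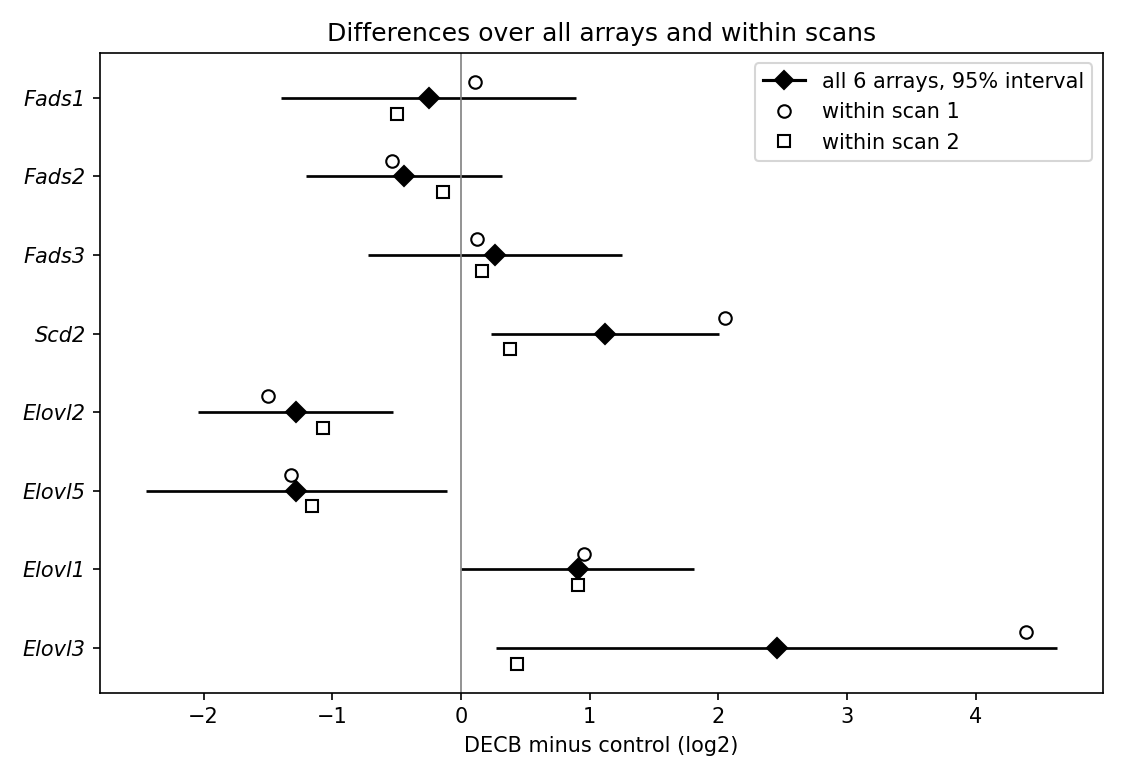
Differences, DECB minus control, on the log2 scale (x axis) for the 8 genes (y axis): diamonds and lines give the limma estimate and its 95% interval over all 6 arrays, circles the difference within scan 1 and squares that within scan 2. Elovl1, Elovl2 and Elovl5 have like values within both scans, whereas Elovl3 and Scd2 differ between scans and Fads1 changes sign.

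Of the other desaturases and elongases, 5 of 9 passed the filter, 0 were called and their median difference was -0.42, against a median of -0.03 over all genes tested. Elovl6, which carries palmitate to stearate, was the only 1 of the 5 without overlap at its brightest probe, where 16.6% of all genes did not overlap. It was at 2.57, 2.41 and 1.92 in DECB 4, 5 and 6, against 3.04, 3.46 and 2.98 in controls 1, 2 and 3. Its difference was -0.86 (SE 0.31, limma, adjusted p = 0.4). Elovl6 lay on the same side of 0 as Elovl2 and Elovl5, and opposite to Elovl1 and Elovl3. Fads6 differed by -0.15 at its brighter probe, where the groups overlapped, and by -0.67 at its other probe, where they did not. Degs1, the dihydroceramide desaturase, differed by 0.02. Scd3 differed by -0.42 at its brightest probe and by 0.25 and 0.21 at its other probes. The probes of Elovl4 and Degs2 were well above background on 0 of the 6 arrays.

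The enzymes that complete each elongation cycle showed no shared direction: of 6 partner enzymes, 3 were above 0 and 3 below, 0 were called, and the median was -0.10. Hsd17b12, the ketoacyl-CoA reductase, differed by 0.44 and Hacd3, a dehydratase, by -0.64 (limma, adjusted p = 0.799 and 0.863). Of 4 electron donors of desaturases 0 were called, with a median of -0.15. Cyb5r3, cytochrome b5 reductase, differed by -0.54 and Cyb5b by 0.41, both without overlap (limma, adjusted p = 0.64 and 0.746). That made 1 of the 4 lower and 1 higher, where 9.40% of all genes were lower and 7.24% higher in that way.

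The acyl-CoA synthetases, which activate the fatty acids that both enzyme families act on, split in direction. Of 5 genes 0 were called, 3 lay above 0 and 2 below, with a median of 0.14. With scan as a block 1 was called lower, Acsl1 (limma, adjusted p = 0.0308), where 3.94% of all genes were. Acsl1, the main liver form, was at 5.45, 5.53 and 6.05 in DECB 4, 5 and 6, against 7.15, 6.89 and 6.94 in controls 1, 2 and 3 (difference -1.32, SE 0.29, limma, adjusted p = 0.137). Acsl3 was at 0.13, 0.78 and -0.21 in DECB 4, 5 and 6, against -2.36, -0.90 and -0.62 in controls 1, 2 and 3 (difference 1.53, SE 0.52, limma, adjusted p = 0.372). Neither pair of groups overlapped. Over the list 1 gene was higher and 2 lower without overlap, where 7.24% of all genes were higher and 9.40% lower in that way. The Acsl3 difference was 2.15 within scan 1, the dim scan that holds its lowest array, and 0.89 within scan 2. With only probes well above background on all 6 arrays kept, the median of this list was -0.65. Of 8 measured phospholipid acyltransferases 0 were called and the median was 0.06. Lpcat3, which places polyunsaturated chains in phospholipids, differed by -0.71, and Agpat5 by 0.67 (limma, adjusted p = 0.604 and 0.468).

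Peroxisomal enzymes, which shorten the product of the ELOVL2 branch in the last step to docosahexaenoate, had a median of -0.80 over 8 measured genes. Of these, 6 lay below 0 and 0 were called, with 4 of the 8 lower without overlap, where 9.40% of all genes were. With scan as a block 3 were called lower, where 3.94% of all genes were. Ehhadh differed by -2.25 and Acaa1b by -1.19 (limma, adjusted p = 0.0675 and 0.149). These adjusted p-values were 0.0291 and 0.046 with scan as a block. Hsd17b4 differed by -0.63 and Scp2 by 0.02, and for both the groups overlapped (limma, adjusted p = 0.684 for Hsd17b4). The list covers peroxisomal shortening at large, so it does not show that the step to docosahexaenoate itself lay lower. Of 7 genes that supply malonyl-CoA, the carbon donor of elongation, and palmitate, 0 were called and the median was -0.27. Acacb, the mitochondrial acetyl-CoA carboxylase, was at 2.57, 2.03 and 2.52 in DECB 4, 5 and 6, against 4.19, 4.10 and 4.05 in controls 1, 2 and 3 (difference -1.74, SE 0.28, limma, adjusted p = 0.0654). It was called lower with scan as a block, the only one of the 7 (limma, adjusted p = 0.0197). Acss2 differed by -0.72 (limma, adjusted p = 0.541). Acaca, the other acetyl-CoA carboxylase of the list, differed by -0.27, with overlapping groups (limma, adjusted p = 0.988). The source of the malonyl-CoA used for elongation was not tested.

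Among 13 measured regulators of these genes 0 were called and the median was -0.10. The groups did not overlap for 3 higher and 4 lower, where 7.24% of all genes were higher and 9.40% lower in that way. With scan as a block limma called 3 of the 13 higher and 3 lower, where it called 2.74% of all genes higher and 3.94% lower. Those higher were Insig1 (adjusted p = 0.0263), Srebf1 (0.0322) and Mlx (0.0385). Those lower were Ppara (adjusted p = 0.0215), Scap (0.0253) and Insig2 (0.0315). Ppara, the fatty acid receptor that raises several desaturase genes, was at 3.45, 3.56 and 3.70 in DECB 4, 5 and 6, against 5.47, 4.96 and 5.25 in controls 1, 2 and 3. That was a difference of -1.66 (SE 0.28, limma, adjusted p = 0.068). Insig1, which holds SREBP precursors in the endoplasmic reticulum, was at 1.21, -0.05 and 1.13 in DECB 4, 5 and 6, against -0.82, -1.59 and -1.94 in controls 1, 2 and 3 (difference 2.21, SE 0.47, limma, adjusted p = 0.116). Srebf1, named after its values were seen because SREBP-1c is the best known activator of this family, was at 1.34, 1.95 and 2.86 in DECB 4, 5 and 6, against 0.84, 0.08 and 0.02 in controls 1, 2 and 3. The groups did not overlap, and the difference of 1.74 (SE 0.46) did not pass over all arrays without the block (limma, adjusted p = 0.205). Srebf1 lay higher. Of the 8 desaturases and elongases 4 lay above 0 and 4 below. The groups did not overlap for 3 higher (Elovl1, Elovl3 and Scd2) and 2 lower (Elovl2 and Elovl5). Elovl3 and Scd2 had only a bound on control 1, and the gap of Elovl3 was under the third decimal. Of the 5 other desaturases and elongases measured, 1 lay above 0 and 4 below, and at the brightest probe only Elovl6 did not overlap. Of the 7 genes that supply malonyl-CoA and palmitate, 3 lay above 0 and 4 below. In this list the groups did not overlap for 0 higher and 2 lower. The part of Srebf1 in these differences was not tested.

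Of 12 measured clock genes, which are relevant to Elovl3, 0 were called and the median was -0.24. Per2 differed by 1.85 and Dbp by -1.51, both without overlap (limma, adjusted p = 0.068 and 0.172). Of the 12, 1 was higher and 2 lower without overlap, where 7.24% of all genes were higher and 9.40% lower in that way. Both Per2 and Dbp were called with scan as a block (limma, adjusted p = 0.0323 and 0.034). That fit called 2.74% of all genes higher and 3.94% lower. Per2 was higher in DECB by 2.15 within scan 1 and 1.34 within scan 2, and the part of the time of tissue collection in the Elovl3 values was not tested.

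**Figure D4:**
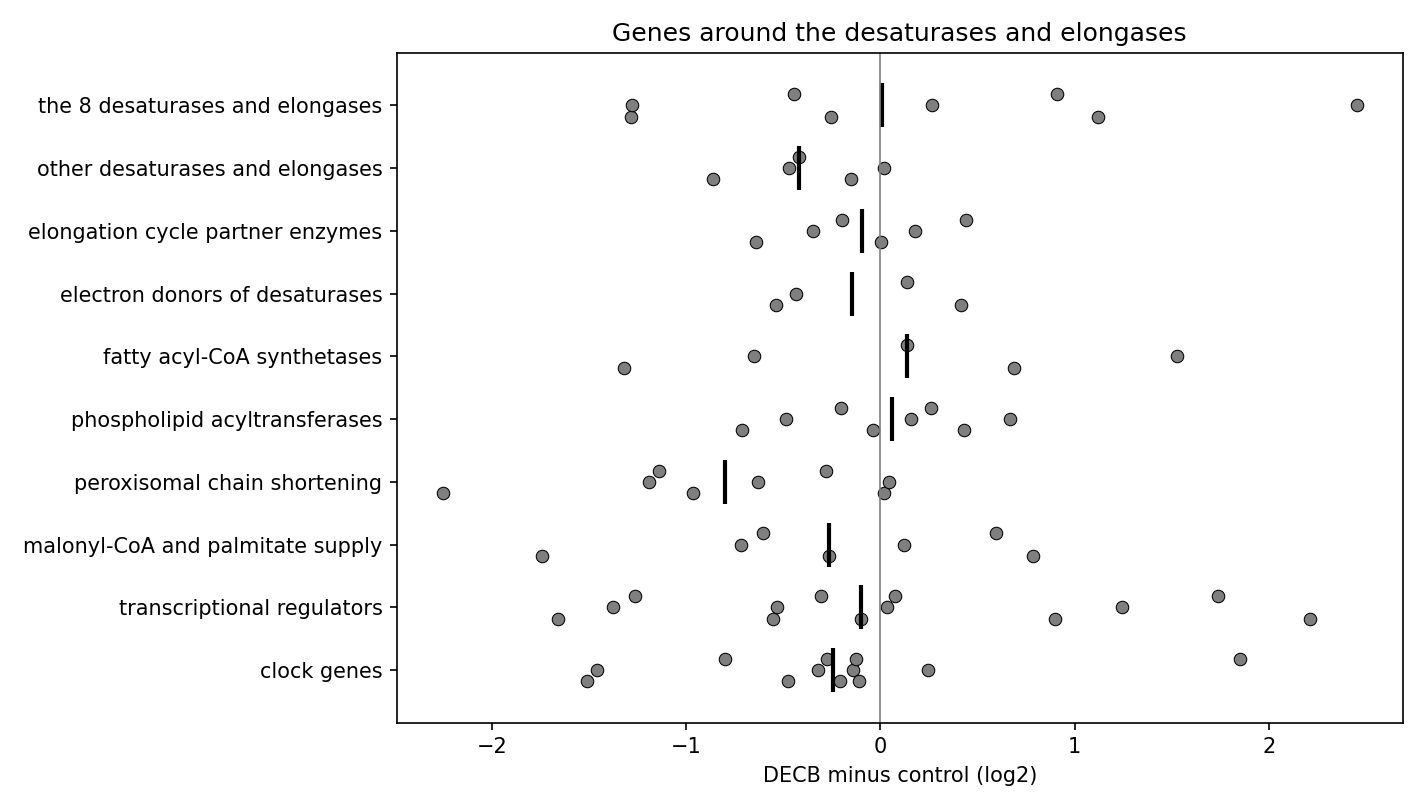
Differences, DECB minus control, on the log2 scale (x axis) for the 8 desaturases and elongases and for the measured genes of 9 lists around them (y axis); each point is a gene and each bar the median of its list. The acyl-CoA synthetases and the regulators spread to both sides of 0, and the list of peroxisomal enzymes has the lowest median, -0.80.

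Across the 6 arrays, the levels of Elovl5 followed those of Fads2 (Pearson's r = 0.92) and Elovl2 (r = 0.906), and Scd2 those of Elovl3 (r = 0.853), while Fads2 and Elovl3 ran opposite (r = -0.922). These values describe 6 arrays that share 2 groups and 3 scans. Those with Elovl3 or Scd2, here and below, include control 1, where the levels of both genes are only bounds. Among 9336 or 9337 other genes well above background on all 6 arrays, those most like Elovl2 were Aqp11, Cyp2d40 and Chac1 (r = 0.993 to 0.995). Those most like Elovl5 were Fggy, Tigd2 and Slc22a23 (r = 0.999 each), and those most like Elovl1 were Tuba1c, Fam3a and Apba3 (r = 0.997 to 0.999). For the other 5 members the closest genes were Ascc2 for Fads1, Gldc for Fads2, Chrd for Fads3, Stk38 for Elovl3 and Tmem120b for Scd2, with r between 0.975 and 0.999. Such values are the highest among 9336 or 9337 over 6 arrays, and Fads1, whose groups overlapped, also reached 0.999. Whether they exceed those of unrelated genes was not tested.

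The tissue label was checked against markers. All 8 hepatocyte markers were measured, 0 were called, and their summed signal was 1831 to 2235 times the array's 75th percentile in DECB and 2029 to 2356 times in control. Of the cholangiocyte list 5 of 7 genes were measured, 4 of them above 0 and Cldn7 below (-0.105). The sum was 1.66 to 2.05 in DECB and 1.22 to 1.40 in control, which did not overlap. Sox9 was the brightest of the 5 on every array, and taken alone it overlapped between the groups. The probe of Krt7 was well above background on 0 arrays. Sums of the other lists overlapped, at 12.7 to 21.1 in DECB and 18.5 to 27.6 in control for Kupffer cells, 15.7 to 32.6 in DECB and 21.8 to 40.3 in control for sinusoidal endothelium, 14.1 to 35.6 in DECB and 24.2 to 50.6 in control for stellate cells and 0.75 to 0.94 in DECB and 0.59 to 1.03 in control for lymphocytes. The lymphocyte sum leaves out Cd3e, which had no value on DECB 4 and was the brightest of these markers elsewhere, at log2 levels of 1.02 and -0.59 in DECB 5 and 6 and -0.56, 0.96 and 0.89 in controls 1, 2 and 3. The adipocyte sum rests on Fabp4 and Retn, at 3.80 to 8.13 in DECB and 2.85 to 4.94 in control, and Adipoq, Lep and Cfd were well above background on 0 arrays. The part of cholangiocytes in the higher Scd2 and Elovl1 values was not tested, and a sum led by Sox9 does not measure it.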

How the data were processed

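Total liver RNA, labelled with Cy3, was measured on 1-colour Agilent arrays, 3 DECB and 3 control. Per the file headers and the submitters' processing notes, the deposited scanner files were made with Agilent Feature Extraction 11.0.1.1. The processed signal, an intensity, had been background-subtracted and spatially detrended by the authors, per the file headers, with no scaling between arrays. The series' value table holds log2 values as deposited, by steps that no source used here gives. The columns, each with a median of 5.34, correlated with their own array at r = 0.524 to 0.576 across probes, and only 1 column correlated best with its own array. Arrays correlated with each other at 0.871 or more. Its scale, centring and direction stay unknown, and it was not used.

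Here the log2 processed signal was taken minus each array's 75th percentile over 43020 non-control spots. Spots marked as outliers (164 to 322 per array) were dropped, 0 spots were saturated, and spots of a probe were averaged. A probe was kept where 3 or more of the 6 arrays had it well above background; single arrays had 14922 to 29487 such probes. Gene names came from RefSeq (GRCm38.p6) by accession without version: 27234 of the 28684 RefSeq probes found a gene, and 12195 of all 39429 probes stayed unnamed. Each gene was represented by its brightest probe. The array design is on mm9, per the file headers, so no probe or gene coordinates are given; those of the promoter windows are RefSeq's own, on GRCm38.p6. Group differences, DECB minus control, were tested with limma 3.58.1 in R 4.3.3 (lmFit, eBayes, two-sided, Benjamini-Hochberg over 14803 genes). The procedure was run on simulated data with independent noise and no scan effect, which cannot show how it handles the scans of these arrays. The number of arrays limits the precision. Groups came from the sample titles. normexp used the median spot signal, as the files used here hold no mean signal.

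The genes and lists were chosen with earlier results of these data known. All 8 members were named, and of each list the genes called or, with none, the 2 with the smallest p. The other desaturases and elongases could all be named, and so were the regulators called with scan as a block. Hsd17b4, Scp2 and Acaca were added after their values were seen. For each member the 3 genes with the highest Pearson's r over the arrays were taken, of which 1 is given for 5 members. Markers were fixed lists of 7 to 9 genes for 7 cell types.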

Additional observations from a re-analysis of the deposited data

How the results depend on the processing

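Over 16 alternatives, 122 of 126 values of the 8 genes kept their direction; Elovl1, Elovl2, Elovl3, Elovl5, Fads2 and Scd2 kept theirs under every alternative that gave a value. With scan as a block Elovl1 (0.93), Elovl2 (-1.26) and Elovl5 (-1.23) passed, and without the arrays of scan 2 Elovl3 was at 4.94 and past the threshold and Fads3 at -0.17, the cause of these changes not being tested. That value of Elovl3 is set against control 1 alone, where its probe was not well above background, and does not support a call. With 1 array left out, Fads1 ran from -0.72 to 0.03, Fads2 from -0.59 to -0.25, Fads3 from -0.03 to 0.59, Elovl1 from 0.62 to 1.17, Elovl2 from -1.51 to -1.08, Elovl3 from 1.47 to 3.17, Elovl5 from -1.67 to -0.87 and Scd2 from 0.89 to 1.38, and none passed in limma. Fads1 was at 0.034 without control 1 and 0.015 without DECB 4, and Fads3 at -0.026 without control 2.

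Genes called by limma over all genes, 31 higher and 38 lower, were 16 and 23 with quantile normalization, 0 and 0 with no filter on dim probes (1257 at an unadjusted p under 0.05), 405 and 583 with scan as a block, 12 and 20 without the arrays of scan 2, and 0 and 2 with controls 2 and 3 averaged (883 unadjusted). With 1 array left out they ran from 0 to 18 higher and from 0 to 35 lower (853 to 2118 unadjusted). Median centring moved the median of all genes to -0.16, from -0.03. The medians of the lists changed by less than their spread between arrays in most alternatives; that of the acyl-CoA synthetases, which ran from -0.65 to 0.39, did not in 4 of 16. Scan 1 was dim, so Elovl3 and Scd2 had only a bound on control 1. The value table was not run as an alternative, because its columns did not follow the scanner values. No paired analysis was possible because no replicate number in the titles occurs in both groups, and the number in the source names is identical for every sample.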
